A study of Mus musculus with 8 samples.

Results

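Bhlhe40 and 9 genes of the circadian clock were followed in leukaemic bone marrow cells of mice with and without an shRNA against Fubp1. The genes were taken by symbol from the deposited count table, 10 of its 47729 genes, and were Bhlhe40, Bhlhe41, Per1, Per2, Per3, Cry1, Cry2, Nr1d1, Nr1d2 and Clock. The set was selected on the measured CPM of Bhlhe40, which was higher in the knockdown, so its own difference is described here without a test. Of the other 9, the 8 that passed a filter on low counts were tested as genes among all genes. Both groups were C57BL/6 mice. In both, donor marrow taken after 5-fluorouracil had received a retrovirus with BCR-ABL1 and red fluorescent protein (MSCV-IRES-RFP), and irradiated recipients then developed a disease like chronic myeloid leukaemia. The groups differed in the second vector, a pLKO.1-Venus lentivirus with either a scrambled shRNA (4 mice) or an shRNA against Fubp1 (4 mice, called the knockdown). Lineage-negative, DAPI-negative cells carrying both fluorescent reporters were sorted from the marrow, and each library is 1 mouse. No source used here gives the age of the mice, the number of hairpins or the hour of day at which marrow was taken.

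The mammalian clock is a transcriptional feedback loop. CLOCK and its partner ARNTL (BMAL1) bind E-boxes and switch on the PER and CRY genes, whose proteins return to repress them, while the nuclear receptors NR1D1 and NR1D2 (REV-ERB alpha and beta) repress Arntl. BHLHE40 and BHLHE41 (DEC1 and DEC2) are helix-loop-helix repressors that also bind E-boxes and oppose CLOCK and ARNTL; BHLHE40 is in addition known as a gene induced by many stimuli, among them hypoxia and cytokines.

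The libraries held 22465303 to 44761356 counts. Fubp1, the target, measured 284 to 396 CPM (counts scaled to a common library size, with a TMM factor) in the scrambled and 220 to 281 CPM in the knockdown libraries, and no library went against its label. The knockdown mean was 76.4% of the scrambled one, with an adjusted p of 0.0604 by edgeR's quasi-likelihood test, whose threshold throughout was 0.05 over all 13462 tested genes. Fubp1 was called lower by DESeq2 (adjusted p = 0.0145) and by edgeR with no low count filter (adjusted p = 0.0365), and in none of the other 13 alternatives. The groups were parted only by 284 CPM in scrambled replicate 2 and 281 CPM in knockdown replicate 1. The fitted log2 fold change (knockdown minus scrambled) was -0.39, and -0.28 without scrambled replicate 4, the library at 396 CPM. B cell markers (7 genes) summed to 0.225 to 1.09 CPM in the scrambled and 0.539 to 3.87 CPM in the knockdown libraries, and T and NK cell markers (7 genes) to at most 0.154 and 0.967 CPM; Ms4a1 and Cd3e had 0 counts in every library. Erythroid markers were abundant, with 11 genes summing to 8696 to 9593 CPM in the scrambled and 6432 to 9266 CPM in the knockdown libraries, 2 called higher and 5 lower. Beside this and the marker counts that follow, 8.02% of all tested genes were called higher and 7.29% lower. Megakaryocyte markers (7 genes, 6 tested, 2 called higher, Itga2b and Gp1ba) summed to 68.6 to 86.7 and 132 to 214 CPM. Progenitor markers (7 genes, 1 called lower, Lmo2) summed to 1391 to 1668 and 1132 to 1240 CPM, and neither sum overlapped between the groups. The markers within each list differed. Fitted log2 fold changes ran from 0.10 to 1.63 for the tested megakaryocyte markers. For the progenitor markers they ran from -1.00 to 2.39, with 2 above 0. The share of single genes in these sums was not examined. Monocyte markers (8 genes) summed to 2.16 to 10.1 and 5.39 to 127 CPM, and stroma and endothelium markers (7 genes) to 43.1 to 56.4 CPM and 13.7 to 730 CPM, highest in knockdown replicate 1. The part of these cell types in the differences of the clock genes was not tested. Early granulocyte markers (8 genes, among them Mpo and Elane) summed to 42.5, 172, 339 and 88.8 CPM in scrambled replicates 1 to 4 and to 1992, 965, 93.8 and 3627 CPM in knockdown replicates 1 to 4, with 1 of 7 tested members called higher (Cst7). All 7 were fitted above 0, with a median log2 fold change of 3.33, where 6752 of all 13462 tested genes were above 0. Mpo and Elane had adjusted p values of 0.0669 and 0.0522 by edgeR. On the first principal component knockdown replicate 3, at -29.0, lay among the scrambled libraries (-57.3 to -13.7).

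Upstream sequences of 8 of the 10 genes were matched by symbol in RefSeq's promoter windows (GRCm38), of which the 250 bases before each start site were read on both strands. Of the motifs through which clock factors act, the E-box CACGTG stood in 6.02% of all such windows, its variant CACGTT in 3.85%, the D-box TTATGTAA bound by DBP, TEF, HLF and NFIL3 in 0.819%, and the core of the ROR and REV-ERB element, TAGGTCA, in 2.23%. The cyclic AMP element TGACGTCA stood in 1.55%. The E-box was found in the windows of Cry1, Per1 and Bhlhe41. CACGTT was found in those of Cry1, Cry2 and Nr1d1, and the D-box at 2 places in that of Per3. Windows of Nr1d2 and Clock, and the other window of Per1, held none of the 5 motifs, and no window of the set held TAGGTCA or TGACGTCA. Shown are the windows of the paralogs Cry1 and Cry2, whose values in the knockdown follow, and those of Per1 and Per3, which carry different motifs; capitals mark the matches, each window ends at the base before the start site, and CACGTT on the other strand reads AACGTG. In Cry1 the E-box begins 60 bases before the start site and the variant 79 bases before it. A match describes these letters and not binding.
Cry1 (chr10:85185055-85185304, minus strand): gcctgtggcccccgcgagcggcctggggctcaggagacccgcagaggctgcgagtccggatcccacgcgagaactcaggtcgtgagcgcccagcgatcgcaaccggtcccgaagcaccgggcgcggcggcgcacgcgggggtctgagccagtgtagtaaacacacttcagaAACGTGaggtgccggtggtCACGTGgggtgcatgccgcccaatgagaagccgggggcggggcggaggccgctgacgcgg
Cry2 (chr2:92434070-92434319, minus strand): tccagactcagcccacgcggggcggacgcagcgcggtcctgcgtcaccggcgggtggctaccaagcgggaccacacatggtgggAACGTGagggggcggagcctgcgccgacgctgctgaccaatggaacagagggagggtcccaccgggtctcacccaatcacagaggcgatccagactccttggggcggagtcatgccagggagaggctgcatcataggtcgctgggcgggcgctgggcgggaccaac
Per1 (chr11:69098699-69098948, plus strand): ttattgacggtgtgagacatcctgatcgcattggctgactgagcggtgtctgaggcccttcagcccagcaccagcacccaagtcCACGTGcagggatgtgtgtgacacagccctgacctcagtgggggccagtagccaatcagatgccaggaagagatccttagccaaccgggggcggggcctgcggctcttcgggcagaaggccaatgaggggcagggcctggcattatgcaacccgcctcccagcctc
Per3 (chr4:151044666-151044915, minus strand): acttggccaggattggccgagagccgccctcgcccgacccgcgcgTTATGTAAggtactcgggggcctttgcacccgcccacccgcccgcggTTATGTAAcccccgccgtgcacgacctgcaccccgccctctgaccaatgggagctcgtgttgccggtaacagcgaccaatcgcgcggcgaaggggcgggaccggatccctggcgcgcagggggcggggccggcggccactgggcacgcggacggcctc

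Bhlhe40 (ENSMUSG00000030103) lies on the plus strand of chromosome 6, between bases 108660629 and 108666925 of GRCm38. Its levels were 7.91, 8.96, 7.27 and 3.78 CPM in scrambled replicates 1 to 4. In knockdown replicates 1 to 4 it measured 20.1, 113, 50.6 and 22.1 CPM. All knockdown libraries lay above all scrambled ones, and knockdown replicates 2 and 3 stood well above replicates 1 and 4. The means were 6.98 ± 2.24 and 51.4 ± 43.2 CPM (SD, n = 4 per group), with a fitted log2 fold change (knockdown minus scrambled, as everywhere below) of 2.87 (SE 0.60). The highest knockdown library had 5.6 times the level of the lowest, against 2.37 times among the scrambled libraries. Within groups the SD of its log2 CPM was 0.91, more than in 94.2% of all tested genes. Without knockdown replicate 2 the log2 fold change was 2.14, and without any other library it ran from 2.66 to 3.14. An annotated antisense gene, 0610040F04Rik, shares 118 exonic bases with Bhlhe40 and held 1 count in the 8 libraries together. Knockdown replicate 3, whose early granulocyte markers (93.8 CPM) lay within the scrambled range, held 50.6 CPM of Bhlhe40. Its summed megakaryocyte markers (181 CPM) lay above the scrambled range and its summed progenitor markers (1163 CPM) below it. Single genes may make up much of these sums. In sorted bulk samples fewer cells of a type and less RNA per cell cannot be told apart, here or for any gene below.

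Bhlhe41, the paralog, was close to undetected. It had 2, 3, 4 and 2 counts in scrambled replicates 1 to 4 and 2, 7, 3 and 1 counts in knockdown replicates 1 to 4, and did not pass the filter on low counts. At this depth a difference in Bhlhe41 was not detectable.

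**Figure D1:**
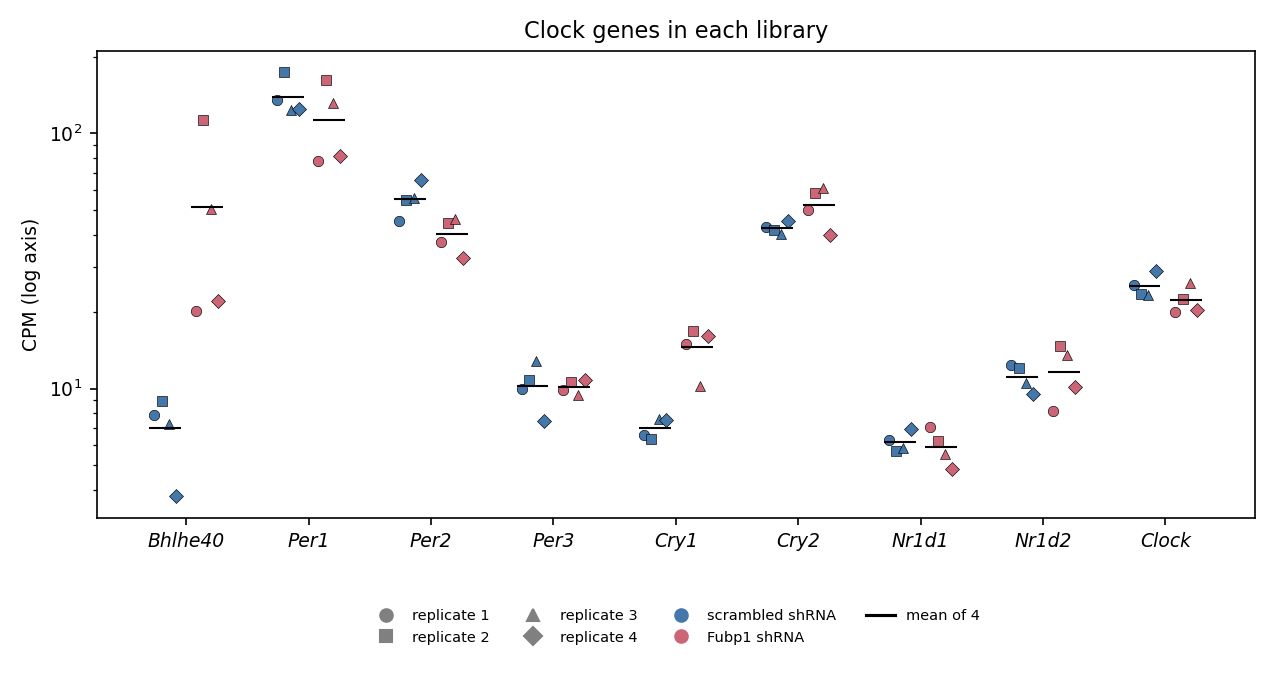
CPM (log axis) of the 9 clock genes that passed the filter on low counts, 1 point per library with a symbol for each replicate number and a bar for the mean of 4 libraries. Bhlhe40 and Cry1 are the genes whose groups do not overlap; Bhlhe40 spreads from 20.1 to 113 CPM in the knockdown.

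Per kilobase of exon (the union of all annotated exons, so a gene with long alternative exons is placed too low), Per1 was the most abundant clock gene of the set in the scrambled libraries, at 24.7 ± 4.20 CPM per kb. Per2 followed at 9.45 ± 1.41 and Cry2 at 6.74 ± 0.329 CPM per kb (SD, n = 4), each with a range apart from its neighbours. Cry1 at 2.10, Nr1d2 at 2.05, Nr1d1 at 2.01, Clock at 1.84, Bhlhe40 at 1.48 and Per3 at 1.07 CPM per kb followed, and in this run each gene overlapped the next in its range over 4 libraries. Bhlhe41 came last at 0.0127 CPM per kb. In the knockdown Bhlhe40 stood second in this order, at 10.9 ± 9.18 CPM per kb, with a range that overlapped those of Per1 (20.1 ± 7.25) and Cry2 (8.27 ± 1.5). That range, 4.28 to 24 CPM per kb, also covered that of Per2 (5.55 to 7.91) and overlapped that of Cry1 (3.07 to 5.04). Cry1, at 4.35 ± 0.887 CPM per kb in the knockdown, stood apart from Nr1d2 below it (2.14 ± 0.553).

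**Figure D2:**
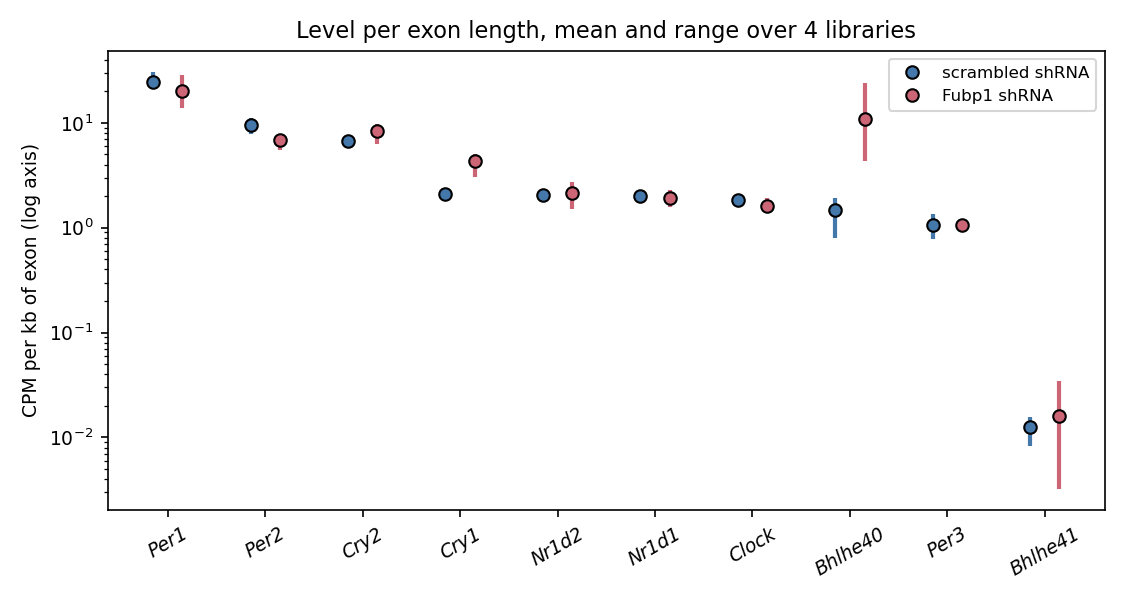
CPM per kb of exon (log axis) of the 10 genes, ordered by the scrambled mean; points are means and bars the range over 4 libraries per group. Per1, Per2 and Cry2 lead in the scrambled libraries, and Bhlhe40 moves from 1.48 to 10.9 CPM per kb.

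Among the negative limb of the loop, Cry1 rose and no other PER or CRY gene passed the test. Cry1 (ENSMUSG00000020038, minus strand of chromosome 10, bases 85131700 to 85185064), which encodes the stronger repressor among the cryptochromes, measured 6.55, 6.37, 7.61 and 7.55 CPM in scrambled replicates 1 to 4. In knockdown replicates 1 to 4 it measured 15, 16.8, 10.2 and 16.1 CPM. The groups did not overlap, and knockdown replicate 3 was the lowest of its group. The log2 fold change was 1.05 (SE 0.17, adjusted p = 0.00894), a 2.07-fold increase. Cry1 kept its call without each of the 8 libraries in turn, with an adjusted p of at most 0.0404 and a log2 fold change of 0.98 to 1.18. It lost the call with the replicate number as a block in edgeR's fit (adjusted p = 0.0548). The early granulocyte markers were also lowest in knockdown replicate 3 among the knockdown libraries (93.8 CPM, against 965 to 3627 in the others). Cry1 there measured 10.2 CPM, and 7.61 CPM in scrambled replicate 3, which had 339 CPM of those markers. The part of these cells in the change of Cry1 was not tested.

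Cry2, the second cryptochrome, measured 42.9, 42.0, 40.3 and 45.3 CPM in the scrambled and 50.0, 58.4, 60.9 and 39.9 CPM in the knockdown libraries. Knockdown replicate 4 lay below all scrambled libraries and the other 3 above them, and the log2 fold change of 0.29 (SE 0.13) did not pass (adjusted p = 0.135). It passed without that library (log2 fold change 0.40, adjusted p = 0.0262). Whether Cry1 and Cry2 changed by different amounts was not tested. The long noncoding gene D930015M05Rik shares 295 exonic bases with Cry2 on the other strand, but held 195 counts over the 8 libraries against 12228 of Cry2.

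Per2, the period gene nearest to the threshold, measured 45.4, 54.7, 55.8 and 65.5 CPM in the scrambled libraries. In knockdown replicates 1 to 4 it measured 37.4, 44.6, 46.3 and 32.5 CPM. Knockdown replicate 3 overlapped scrambled replicate 1, and the other 3 knockdown libraries lay below every scrambled one. The log2 fold change was -0.46 (SE 0.14), with an adjusted p of 0.0545 by edgeR. The adjusted p was 0.0292 without knockdown replicate 3, 0.0133 by DESeq2 and 0.0445 with no low count filter; over all alternatives it ran from 0.0133 to 0.133 and the log2 fold change from -0.56 to -0.37.

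Per1, which besides its clock role is known as an immediate early gene and a glucocorticoid target, measured 135, 174, 123 and 125 CPM in the scrambled libraries. Its knockdown libraries split, with 77.8 and 81.5 CPM in replicates 1 and 4 and 162 and 131 CPM in replicates 2 and 3. The first pair lay below all scrambled libraries and the second among them, and the log2 fold change was -0.30 (SE 0.25, adjusted p = 0.446). Per3 was level between the groups, at 10.3 ± 2.22 and 10.2 ± 0.653 CPM (SD, n = 4 per group) (log2 fold change -0.01, SE 0.16, adjusted p = 0.968). All of its exons lie within the span of Camta1 on the same strand, with no shared exonic base.

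The receptor limb and Clock itself showed no change that passed. Nr1d1 measured 6.20 ± 0.548 and 5.93 ± 0.965 CPM (log2 fold change -0.06, SE 0.16, adjusted p = 0.822). Its 3' end overlaps that of Thra, the thyroid hormone receptor gene on the opposite strand, over 263 exonic bases. Thra held 21738 counts against 1554 of Nr1d1, and without a stated strand setting reads in the overlap cannot be assigned. Thra itself fell, with 92.0 ± 6.5 CPM in the scrambled and 74.0 ± 5.27 CPM in the knockdown libraries (log2 fold change -0.31, SE 0.07, adjusted p = 0.0272). That call held only without scrambled replicate 4 or knockdown replicate 3 among the 8 omissions (adjusted p by edgeR of up to 0.0848 in the rest). Nr1d2 measured 11.1 ± 1.34 and 11.6 ± 2.99 CPM (log2 fold change 0.06, SE 0.19, adjusted p = 0.858), with knockdown replicates 2 and 3 at 14.7 and 13.5 CPM above all scrambled libraries and replicate 1 at 8.18 CPM below them. Clock, the activator, measured 25.3 ± 2.67 and 22.1 ± 2.81 CPM (SD, n = 4 per group; log2 fold change -0.19, SE 0.11, adjusted p = 0.282).

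Of the 8 tested clock genes other than Bhlhe40, 1 was called higher, where 8.02% of all tested genes were, and 0 lower, where 7.29% were (15.3% in either direction). One call among 8 genes is near that background and says nothing about the set as a whole. At an unadjusted p under 0.05 there were 2 higher (Cry1 and Cry2) and 1 lower (Per2). By DESeq2 1 was called in each direction, and by limma-voom 1 higher and 0 lower. The median log2 fold change of the 8 was -0.04, beside 0.001 over all tested genes. The 2 of 9 tested genes without overlap of the groups, Bhlhe40 and Cry1, were both higher. Of all tested genes 20.7% had groups that did not overlap, 9.54% with the knockdown higher and 11.1% with it lower. Cry1 and Bhlhe40 were also the genes of the set fitted at more than 1 log2 unit above the scrambled level, as 9.93% of all tested genes were. Bhlhe40 chose the set, so nothing is read from its place in that count.

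**Figure D3:**
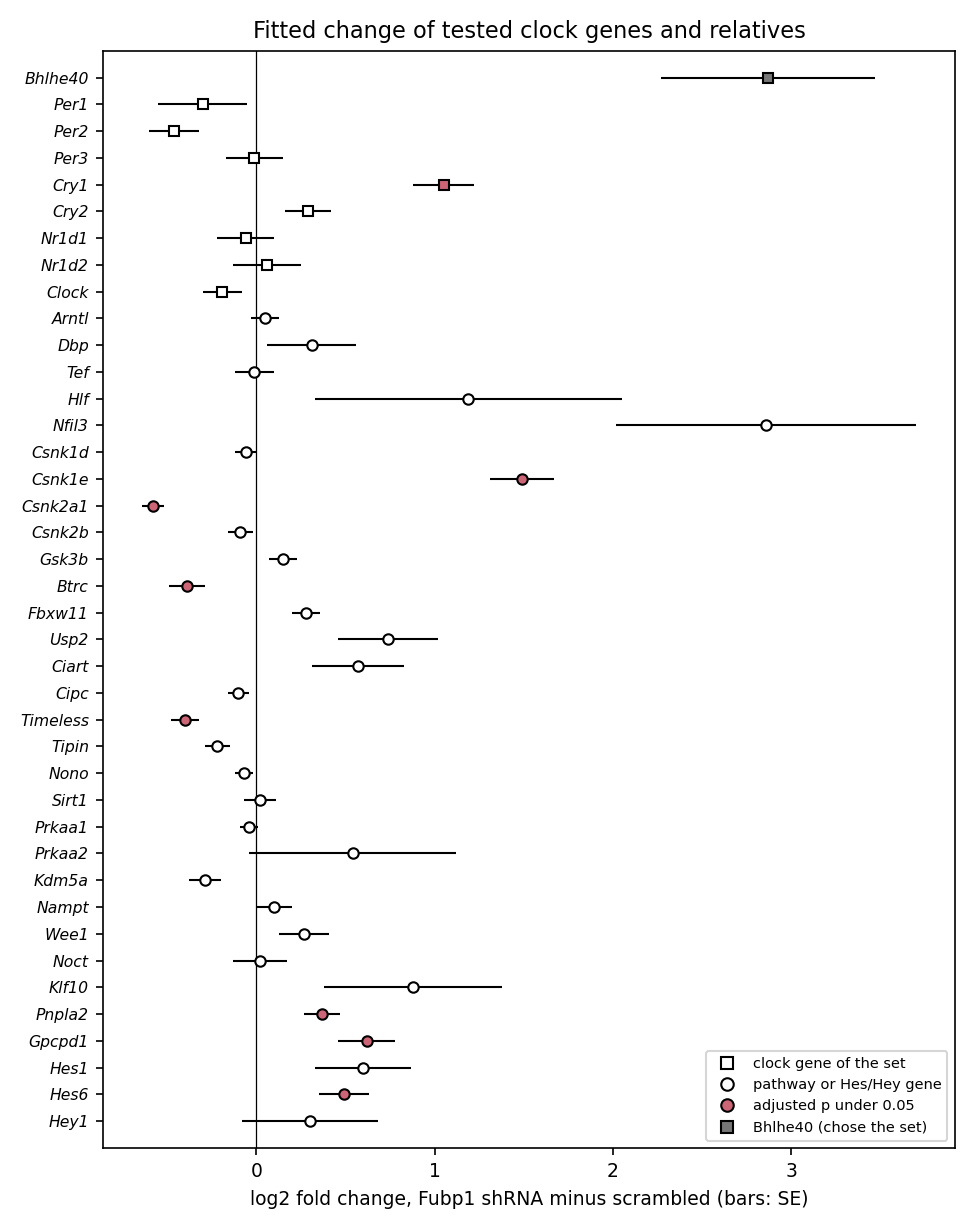
Fitted log2 fold change (knockdown minus scrambled) with its standard error for the tested clock genes (squares) and for tested pathway and Hes/Hey genes (circles; 1 is not shown); filled symbols passed an adjusted p of 0.05, and Bhlhe40, which chose the set, is grey. Among the genes that passed, Bhlhe40 aside, Cry1 at 1.05 and Csnk1e at 1.49 stand furthest right and Csnk2a1 at -0.58 furthest left. Nfil3, at 2.86, did not pass and lies further right.

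The rest of the clock pathway was read from 36 further genes, of which 29 were tested, 3 rose and 3 fell. Over all tested genes 8.02% were called higher and 7.29% lower, so these counts are near the background. Their median log2 fold change was 0.10. Partners of Clock were represented by Arntl, which measured 14.6 ± 0.497 and 15.1 ± 0.397 CPM (SD, n = 4 per group; log2 fold change 0.05, SE 0.08, adjusted p = 0.728). Npas2 and Arntl2, alternative partners and relatives, and Rora and Rorb, activators of Arntl, did not pass the filter on low counts. Of the 4 output factors with a leucine zipper 0 passed edgeR's test and 1, Nfil3, had an unadjusted p under 0.05. DESeq2 called Nfil3 (adjusted p = 0.007), and limma-voom called 0. Among them Nfil3, a repressor at D-boxes, measured 0.389, 1.26, 1.25 and 0.584 CPM in the scrambled and 5.20, 4.23, 0.730 and 15.3 CPM in the knockdown libraries (log2 fold change 2.86, SE 0.84, adjusted p = 0.0543). Knockdown replicate 3 lay among the scrambled libraries, and its order over the knockdown libraries differed from that of the early granulocyte markers in no place: replicate 4, then 1, 2 and 3. The part of those cells in the value of Nfil3 was not tested. Dbp, which overlaps Sphk2 over 539 exonic bases, measured 2.34 ± 0.686 and 2.92 ± 0.395 CPM (SD, n = 4 per group, adjusted p = 0.417), and Tef 34.2 ± 1.64 and 33.9 ± 4.99 CPM (adjusted p = 0.947). Sphk2, on the opposite strand, held 13750 counts against 701 of Dbp. Without a stated strand setting, reads in that overlap cannot be assigned either.

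Among the kinases, ubiquitin ligase parts and other proteins that modify or bind clock proteins, 1 of 18 tested genes rose and 3 fell. Of all tested genes 8.02% were called higher and 7.29% lower, and nothing is read from these counts about the list as a whole. Csnk1e (ENSMUSG00000022433, minus strand of chromosome 15, bases 79417856 to 79455566), which encodes casein kinase 1 epsilon, a kinase that marks PER proteins for degradation, measured 8.13, 7.45, 10.2 and 8.90 CPM in the scrambled libraries. In the knockdown libraries it measured 23.0, 29.5, 17.5 and 27.0 CPM, every one above every scrambled library. The log2 fold change was 1.49 (SE 0.18, adjusted p = 0.00293). Its close relative Csnk1d measured 224 ± 12.4 and 215 ± 7.93 CPM (SD, n = 4 per group; log2 fold change -0.06, adjusted p = 0.519). Csnk2a1, the catalytic alpha subunit of casein kinase 2, measured 105, 104, 106 and 109 CPM in the scrambled and 73.5, 64.5, 69.2 and 76.3 CPM in the knockdown libraries, and fell, with no overlap of the groups (log2 fold change -0.58, SE 0.06, adjusted p = 0.00259). Its regulatory subunit Csnk2b had a log2 fold change of -0.09 (adjusted p = 0.354). Csnk1e and Csnk2a1 kept their calls without each of the 8 libraries in turn, with an adjusted p of at most 0.0181 and 0.0127.

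Btrc, an adaptor of the ubiquitin ligase that recognises phosphorylated PER proteins, fell, at 41.5 ± 1.76 CPM in the scrambled and 31.6 ± 4.55 CPM in the knockdown libraries (SD, n = 4 per group; log2 fold change -0.39, SE 0.10, adjusted p = 0.0357). Its paralog Fbxw11 measured 73.9 ± 7.34 and 89.6 ± 5.21 CPM, with all knockdown libraries above all scrambled ones and an adjusted p of 0.0522. Timeless, known in mammals above all for its role at replication forks, fell as well, at 235 ± 18.2 and 179 ± 13.9 CPM (log2 fold change -0.40, SE 0.08, adjusted p = 0.0145). Its partner Tipin had a log2 fold change of -0.22 (adjusted p = 0.0765). Timeless lost its call without scrambled replicate 2 (adjusted p = 0.0504). Btrc stayed called only when scrambled replicate 4 or knockdown replicate 3 was omitted; the other 6 omissions gave p values of up to 0.0915 after adjustment.

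Among genes known as clock-controlled outputs 2 of 7 tested rose, where 8.02% of all tested genes were called higher, and both calls were lost in most fits with a library omitted. They were Gpcpd1, a glycerophosphodiesterase gene (20.6 ± 4.42 and 31.7 ± 4.69 CPM in the 2 groups, log2 fold change 0.62, SE 0.16, adjusted p = 0.0343), and Pnpla2, which encodes a triglyceride lipase (51.9 ± 7.06 and 67.1 ± 5.17 CPM, log2 fold change 0.37, SE 0.10, adjusted p = 0.0420; SD, n = 4 per group). When single libraries were omitted, Gpcpd1 stayed called without scrambled replicate 4 or knockdown replicate 3 and Pnpla2 without scrambled replicate 1. The remaining omissions ended both calls, at adjusted p values reaching 0.0949 and 0.114. Nampt, Noct and Wee1 did not pass, with log2 fold changes of 0.10, 0.02 and 0.27.

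**Figure D4:**
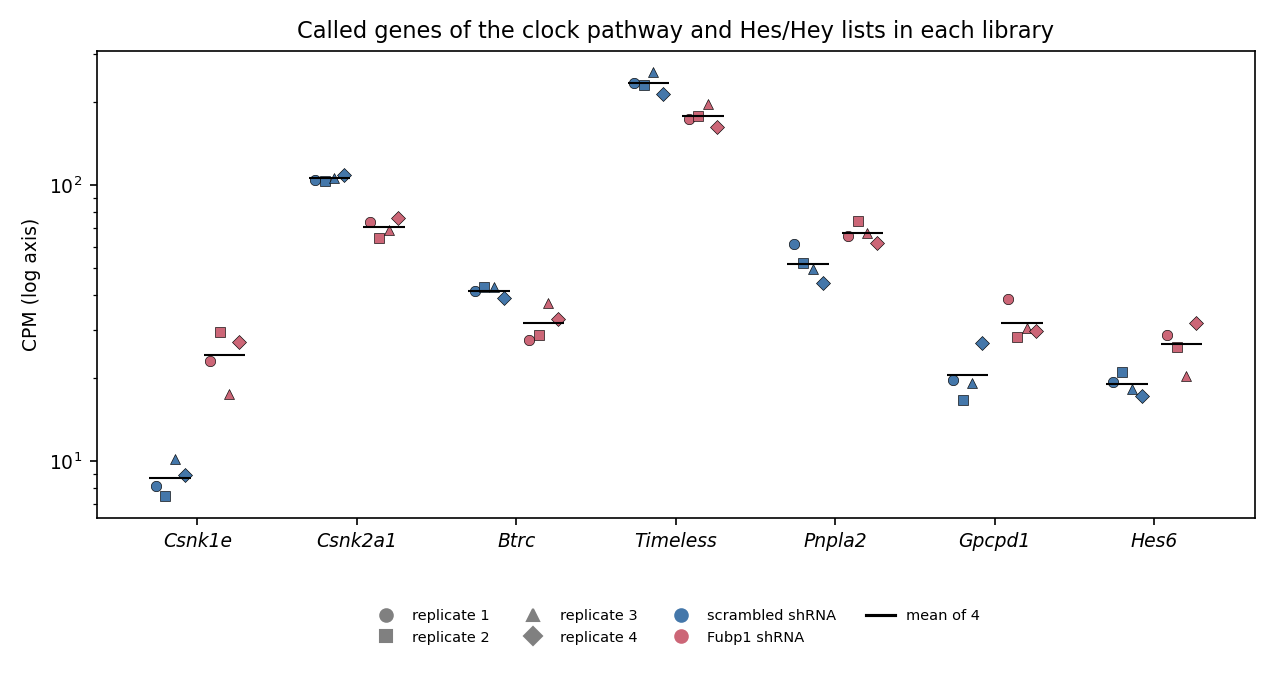
CPM (log axis) in each library of the 7 genes of the clock pathway and Hes/Hey lists that passed an adjusted p of 0.05, with a symbol for each replicate number and a bar for the mean of 4 libraries. Csnk1e and Csnk2a1 show groups far apart for their spread; Hes6 overlaps, with knockdown replicate 3 at 20.3 CPM.

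BHLHE40 belongs to the wider family of Hes and Hey repressors, 10 genes of which 3 were tested and 1 rose. Of all tested genes 8.02% were called higher, and 1 call among 3 genes says nothing about the family. Hes6 measured 19.3, 21.0, 18.3 and 17.3 CPM in the scrambled and 28.6, 25.9, 20.3 and 31.7 CPM in the knockdown libraries. Knockdown replicate 3 overlapped scrambled replicate 2, and the log2 fold change was 0.49 (SE 0.14, adjusted p = 0.0436). Omitting single libraries ended the call in 7 of 8 cases (adjusted p at most 0.106); it held without knockdown replicate 3. Hes6 is the downstream neighbour of Per2 on chromosome 1, with 1943 bases between their annotated ends. Hes1, the Notch target, measured 3.57 ± 0.781 and 5.40 ± 1.90 CPM (SD, n = 4 per group; log2 fold change 0.60, SE 0.27, adjusted p = 0.150), and Hey1 was below 1.1 CPM in every library.

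The knockdown libraries differed among themselves in the clock genes in a way that recurred. In Bhlhe40, knockdown replicates 2 and 3 were both above replicates 1 and 4, and the same held for 5 of the other 8 tested clock genes (Per1, Per2, Cry2, Nr1d2 and Clock) and for 12 of the 29 tested pathway genes, where 23.7% of all tested genes showed it. The order was read from Bhlhe40 after its values were seen, so these counts are a description. The 3 clock genes without it were Cry1, Per3 and Nr1d1. Klf10, a factor known both as a clock output and as an early response gene, showed it plainly, with 183 and 197 CPM in knockdown replicates 2 and 3 against 50.4 and 43.1 CPM in replicates 1 and 4 and 54.4 to 75.9 CPM in the scrambled libraries (log2 fold change 0.88, SE 0.50, adjusted p = 0.259). Wee1, a cell cycle kinase under clock control, measured 68.9 and 71.6 CPM in replicates 2 and 3 and 45.2 and 51.4 CPM in replicates 1 and 4.

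The same 2 libraries were highest for immediate early genes, which respond to stimulation and to cell handling. The summed level of 9 of them (Fos, Fosb, Jun, Junb, Egr1, Ier2, Atf3, Dusp1 and Zfp36) was 3550, 6710, 7141 and 2482 CPM in knockdown replicates 1 to 4 and 4540, 3472, 2138 and 2804 CPM in scrambled replicates 1 to 4. All 9 genes had knockdown replicates 2 and 3 above 1 and 4, as 23.7% of all tested genes did. Between the groups 0 of 9 passed edgeR's test, DESeq2's or that of limma-voom, where edgeR called 15.3% of all tested genes. All 9 were fitted above 0 by edgeR, with a median log2 fold change of 0.67. At an unadjusted p under 0.05 edgeR had 2 (Atf3 and Zfp36), DESeq2 3 and limma-voom 0, all higher in the knockdown. Knockdown replicates 1 and 4 had summed immediate early levels within the scrambled range. They held 20.1 and 22.1 CPM of Bhlhe40, and the highest scrambled library held 8.96 CPM. The part of the immediate early genes' level in that of Bhlhe40 was not tested for any of the libraries.

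**Figure D5:**
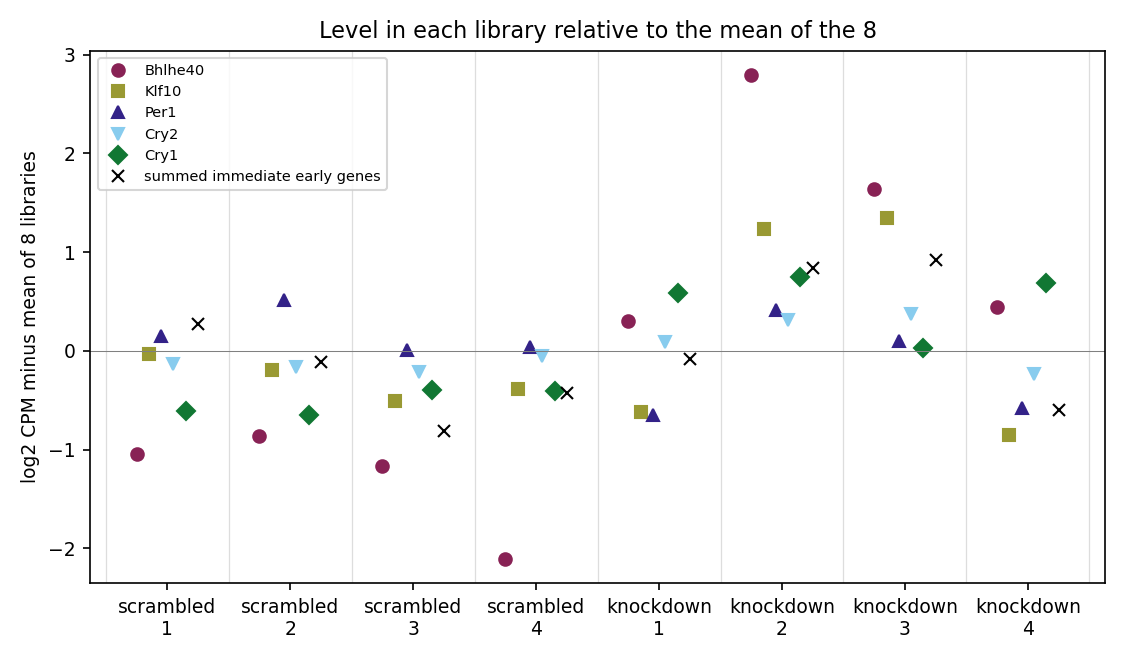
Level of 5 genes and of the summed immediate early genes in each library, as log2 CPM minus the mean over the 8 libraries; each column is 1 library. Bhlhe40, Klf10, Per1, Cry2 and the immediate early sum are higher in knockdown replicates 2 and 3 than in 1 and 4, whereas Cry1 is lowest in replicate 3 among the knockdown libraries.

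The genes whose profile over the 8 libraries lay nearest to that of Bhlhe40, by the root mean square difference of log2 CPM centred on each gene's mean, were Neurl3 (0.47), Prr7 (0.48), Gadd45b (0.55), Icam1 (0.60) and Zc3h12a (0.62), with genes of lower mean than 5 CPM left aside. Neurl3, a ubiquitin ligase gene, measured 13.7, 9.73, 5.09 and 4.18 CPM in the scrambled and 17, 66.6, 59.4 and 15.9 CPM in the knockdown libraries. Zc3h12a, which encodes a ribonuclease that restrains inflammatory transcripts, measured 6.16 to 11 CPM in the scrambled and 14.8, 51, 35 and 11.8 CPM in the knockdown libraries. Icam1, an adhesion molecule gene, measured 5.13 to 7.96 CPM and then 17.2, 37.3, 25.6 and 13.9 CPM. In all 5 genes knockdown replicate 2 was the highest library, as in Bhlhe40. They were picked for this likeness, so it is given without a test.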

How the data were processed

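RNA-seq of 8 libraries, 1 per mouse, came as a deposited table of raw counts, 1 row a gene, not normalized by the authors. The submitters' processing notes name CASAVA 1.8. Aligner, counter, strand setting, annotation and genome build are not stated in any source used here. The table also holds the authors' mean signal per gene, log2 fold changes, test score and p-values, which per the submitters' processing notes come from DESeq2 1.18.1; they were not used for any result. Each count column was tied to its sample through the number in the sample's description, and 0 per-sample columns were left over. Gene positions and exon lengths come from GENCODE M21 (GRCm38), in which 47224 of the 47729 gene IDs were found.

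The test was edgeR's (4.0.16, R 4.3.3): filterByExpr, TMM, a robust quasi-likelihood fit with the group as its only term, a two-sided F test and Benjamini-Hochberg adjustment over all 13462 tested genes. The fits were tested on simulated data. SEs were computed from the log2 fold change and the F statistic. Depth was 22465303 to 44761356 counts per library, and low genes such as Bhlhe41 rest on a few counts each. Alternatives were RLE and upper quartile scaling, DESeq2 1.42.0, limma-voom (limma 3.58.1), no low count filter, a filter at 1 CPM in 4 libraries, the replicate number as a block, and each library left out.

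Named genes were every clock gene of the set, the called genes of the clock pathway and Hes and Hey lists, the 5 nearest profiles to Bhlhe40, Fubp1, and genes overlapping a member; other pathway genes, immediate early genes and Fkbp5 were named after their values were seen. A few genes of the lists are counted but not reported here by name. The genes and lists were chosen with earlier results of these data known.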

Additional observations from a re-analysis of the deposited data

Results flagged for a closer look

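Fubp1 in scrambled replicate 4 stood apart from the other 3 scrambled libraries, at 396 CPM against 284 to 296 CPM. Its gap to the nearest library was 0.894 of the group's range, above the 95% critical value of Dixon's test for 4 samples. It was the single such library in 50 groups of 4 examined (each named gene in each group), where chance flags about 1 in 20. No clock gene of the set was flagged in this way.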

How the results depend on the processing

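Over all genes, 1080 were called higher and 982 lower; DESeq2 called 2035 and 1553, and leaving out 1 library gave 275 to 1956 and 251 to 1469, lowest without scrambled replicate 2 and highest without knockdown replicate 3. Of the clock genes other than Bhlhe40 (1 higher, 0 lower), DESeq2 and the fit with no low count filter each called 1 lower, Per2. Leaving out 1 library gave 1 to 2 higher and 0 to 1 lower. Of the other pathway genes (3 higher, 3 lower), upper quartile scaling called 5 higher, the filter at 1 CPM 5 higher, and DESeq2 6 higher and 5 lower; leaving out 1 library gave 1 to 3 higher and 1 to 5 lower. The 1 Hes and Hey gene called higher became 0 with limma-voom and with no low count filter, and 0 to 1 when 1 library was left out. The log2 fold change of Per3 changed sign to 0.02 with upper quartile scaling and 0.01 with the filter at 1 CPM, and ran from -0.15 to 0.10 when 1 library was left out. That of Nr1d1 ran from -0.16 to 0.02 and that of Nr1d2 from -0.07 to 0.20. The cause of these shifts was not tested.

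With the replicate number as a block, 195 genes were called higher and 205 lower. Clock genes called higher then numbered 0 (Cry1 had a log2 fold change of 1.03 and an adjusted p of 0.0548), other pathway genes called higher 1, Hes and Hey genes called higher 0, and the log2 fold change of Per3 was 0.01. Deviations of same-numbered libraries from their group means correlated at -0.420, 0.022, -0.558 and -0.220, and no library correlated best with its own number. These values gave no sign of pairing by number. Such deviations also hold differences in cell type markers between mice, so they cannot decide whether the numbers pair the mice. Depth left Bhlhe41 untested, with 24 counts in all.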

Other observations

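Genes known to respond to glucocorticoids, a hormone signal that follows the clock of the body and acts on Per1, were read beside the clock genes. Their summed level (Fkbp5, Tsc22d3, Sgk1, Zbtb16 and Klf9) was 99.4 to 137 CPM in the scrambled and 143 to 194 CPM in the knockdown libraries, without overlap. Without Fkbp5 the other 4 summed to 52 to 86.8 CPM and 65.1 to 114 CPM and overlapped. Of the 5 genes 1 rose and 0 fell, where 8.02% of all tested genes were called higher. Fkbp5, which encodes a co-chaperone of the glucocorticoid receptor, measured 42.2, 50.4, 54.9 and 47.4 CPM in the scrambled and 77.5, 79.4, 56.4 and 104 CPM in the knockdown libraries (log2 fold change 0.71, SE 0.17, adjusted p = 0.0310 by edgeR). Omitting single libraries ended the call in 7 of 8 cases (adjusted p at most 0.0871); it held without knockdown replicate 3. Tsc22d3, another such target, had a log2 fold change of 0.28 (adjusted p = 0.521).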
